A study of Mus musculus with 12 samples.

Results

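The genes described here are 8 members of the p53 axis and of the cellular stress response on the NanoString® Mouse PanCancer Pathways panel, chosen by name among its 770 gene probes. They are *Trp53*, which encodes the transcription factor p53, *Mdm2*, the ubiquitin ligase that marks p53 for degradation, the 3 *Gadd45* genes (*Gadd45a*, *Gadd45b* and *Gadd45g*), the stress-induced transcription factor *Ddit3* (CHOP), the mTORC1 inhibitor *Ddit4* (REDD1) and the mitophagy receptor *Bnip3*. All 8 were on the panel, and all 8 stood above the detection floor in each of the 12 samples.

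The samples fell into 4 groups of 3 biological replicates. AKT Cre/NRAS siRNA and AKT Cre/NRAS SCR were the murine hepatocellular carcinoma (HCC) line from which Cre recombinase had removed the AKT construct, so that an activated NRAS mutant alone drove it, after transfection of an siRNA pool against *Dusp4* or of a negative control pool (SCR). AKT/NRAS siRNA and AKT/NRAS SCR were the parental line, which grew out of a mouse tumour raised by injection of floxed myristoylated AKT and mutant NRAS and carries both constructs, with the same pools. All groups share the mutant NRAS and the transfection reagent, both lines go back to the same parental line, and nothing in the sources used here says whether either is a single clone. Whether fewer cells of a kind or less RNA per cell lay behind a lower value cannot be told apart in such bulk RNA.

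p53 is kept low in unstressed cells by MDM2, whose own gene p53 activates, so that both form a feedback loop. Stress to DNA, to the endoplasmic reticulum, or from lack of oxygen or nutrients induces GADD45 proteins, which bind the kinase MAP3K4 and can activate the p38 and JNK cascades through it, as well as CHOP, REDD1 and BNIP3. DUSP4, the target of the silencing, is a nuclear phosphatase that acts on ERK and JNK, and JNK is a kinase that GADD45 proteins can activate through MAP3K4.

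Promoters are shown for the members that passed the test under *Dusp4* silencing in both lines, as the 250 bases before the RefSeq transcription start in build GRCm38.p6. Capitals mark CCAAT boxes (CCAAT or its reverse complement ATTGG) and the core of the hypoxia response element (ACGTG or CACGT, which overlap in CACGTG). The regions are chr11:69580109-69580358 on the plus strand for *Trp53*, chr6:67037408-67037657 on the minus strand for *Gadd45a*, chr10:127290543-127290792 on the plus strand for *Ddit3* and chr7:138909507-138909756 on the minus strand for *Bnip3*.
Trp53: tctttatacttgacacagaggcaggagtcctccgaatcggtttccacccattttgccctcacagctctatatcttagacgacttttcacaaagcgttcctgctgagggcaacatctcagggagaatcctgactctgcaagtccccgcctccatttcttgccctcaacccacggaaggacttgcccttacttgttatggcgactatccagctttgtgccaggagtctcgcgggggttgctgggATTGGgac
Gadd45a: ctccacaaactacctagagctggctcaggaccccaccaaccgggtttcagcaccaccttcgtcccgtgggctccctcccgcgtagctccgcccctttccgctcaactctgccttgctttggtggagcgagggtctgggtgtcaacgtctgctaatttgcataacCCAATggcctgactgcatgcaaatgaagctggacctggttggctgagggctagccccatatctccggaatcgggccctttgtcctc
Ddit3: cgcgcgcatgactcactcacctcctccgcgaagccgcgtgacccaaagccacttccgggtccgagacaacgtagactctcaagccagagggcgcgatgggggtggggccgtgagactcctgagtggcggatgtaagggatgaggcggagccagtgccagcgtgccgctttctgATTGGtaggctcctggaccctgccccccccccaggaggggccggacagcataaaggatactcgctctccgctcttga
Bnip3: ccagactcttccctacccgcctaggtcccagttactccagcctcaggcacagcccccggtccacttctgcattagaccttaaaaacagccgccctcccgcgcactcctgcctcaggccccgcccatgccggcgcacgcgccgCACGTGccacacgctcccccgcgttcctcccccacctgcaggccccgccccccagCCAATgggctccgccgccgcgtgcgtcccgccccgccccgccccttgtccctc
At least 1 CCAAT box was found in 8 of 8 members, against 33.8% of the 32851 RefSeq promoters of the same length. The hypoxia core was found in 4 of 8, *Bnip3*, *Ddit4*, *Gadd45b* and *Gadd45g*, against 16.6% of all promoters. The AP-1 letters TGACTCA, on either strand, stood in the *Ddit3* promoter alone among the members (4.46% of all promoters), the GC box GGGCGG in 5 members (32.7%), and the cyclic AMP response element TGACGTCA in 0 members (1.55%). A match is a string of letters in this window and says nothing of occupancy.

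Values below are normalized counts, the deposited signal divided by a factor from 15 reference genes, with a common floor of 27.1. Log2 fold changes come from limma on log2(normalized count + 1), each is the group named first over the group named second, and adjusted p values are Benjamini-Hochberg values over all genes tested in the comparison. Levels of different probes were not set against each other, apart from the log2 ratios and the marker sum given below. *Dusp4* itself had 4126, 4174 and 3769 normalized counts in AKT Cre/NRAS siRNA, against 6343, 5843 and 4483 in AKT Cre/NRAS SCR, and 350.2, 389 and 371 in AKT/NRAS siRNA, against 1273, 1226 and 1186 in AKT/NRAS SCR. The silencing was therefore deeper in the parental line, with log2 fold changes of -1.73 there and -0.45 in AKT Cre/NRAS (interaction 1.28, limma adjusted p = 0.000728). *Akt1* averaged 555.1 ± 28.8 and 388 ± 47.9 in AKT Cre/NRAS siRNA and SCR, and 18331 ± 208 and 19831 ± 507 in AKT/NRAS siRNA and SCR (SD, n = 3 each), the order that the line labels state. The recovered barcode counts above the floor summed to between 641790 and 1081646 per sample. The AKT Cre/NRAS SCR libraries stood apart from the others: the log2 ratio of *Rpl19* to *Polr2a*, a ribosomal protein and an RNA polymerase transcript, was 5.48, 6.36 and 6.88 there, against 4.72 to 5.03 in AKT Cre/NRAS siRNA and 3.81 to 3.92 in the AKT/NRAS samples. Fits that left out both libraries of the highest ratio are given below. Beyond them, the part of this ratio in the results on the AKT Cre/NRAS line was not tested.

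**Figure D1:**
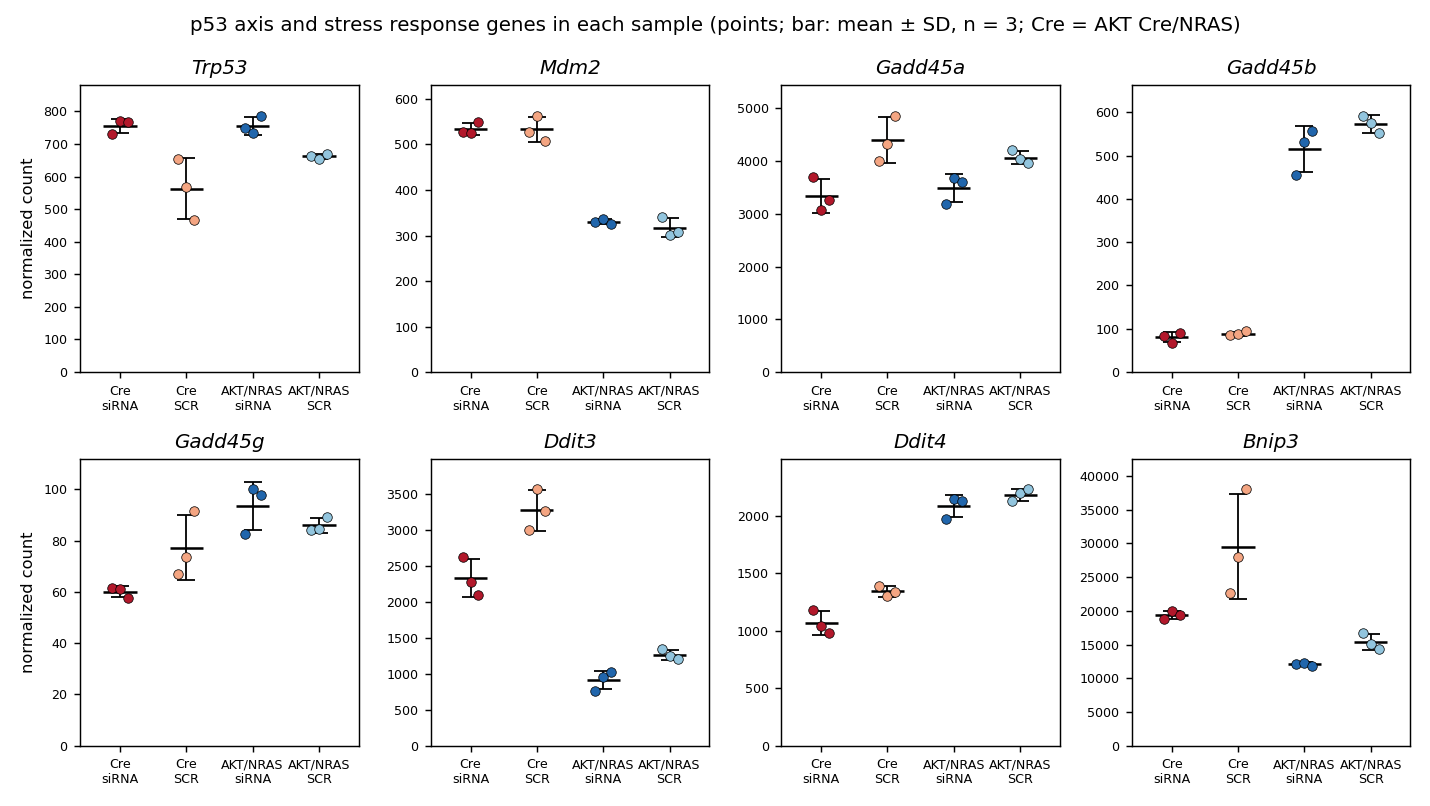
Normalized counts of the 8 genes in each of the 12 samples, 1 panel per gene with its own axis starting at 0; points are samples, the bar is the mean and the whisker the SD (n = 3). *Gadd45b* separates the lines most widely, with AKT Cre/NRAS samples between 68.1 and 93.7 and AKT/NRAS samples between 456 and 592, while *Bnip3* is widely spread in AKT Cre/NRAS SCR (22649 to 38007).

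*Dusp4* silencing was accompanied by more *Trp53* RNA and less *Ddit3*, *Gadd45a* and *Bnip3* RNA in both lines. In AKT Cre/NRAS, 5 of the 8 genes passed the test, *Trp53* upward and *Ddit3*, *Gadd45a*, *Ddit4* and *Bnip3* downward. In AKT/NRAS, 4 passed, *Trp53* upward and *Ddit3*, *Gadd45a* and *Bnip3* downward. *Mdm2* and *Gadd45b* passed in neither line, and *Gadd45g* and *Ddit4* moved differently in the lines. With the stricter Benjamini-Yekutieli adjustment, which the study's methods name, 0 members passed in AKT/NRAS and fewer than 5 in AKT Cre/NRAS.

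The direction of the panel as a whole differed between these comparisons. In AKT Cre/NRAS siRNA against SCR, 45.9% of 503 tested genes passed, 40.6% higher and 5.37% lower, so that the 4 falls among 8 members stood against a low share of falls and the 1 rise against a high share of rises. The median log2 fold change was -0.34 over the members and 0.23 over all genes tested, and 7 of 8 members lay below 0.23. In AKT/NRAS siRNA against SCR, 17.3% of 496 genes passed, 5.44% higher and 11.9% lower, with a median of -0.11 over the members and -0.03 over all genes tested. The samples did not overlap between the groups for 6 of 8 members in AKT Cre/NRAS, where 60.0% of all genes tested did not overlap, and for 4 of 8 in AKT/NRAS, where 34.7% did not.

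**Figure D2:**
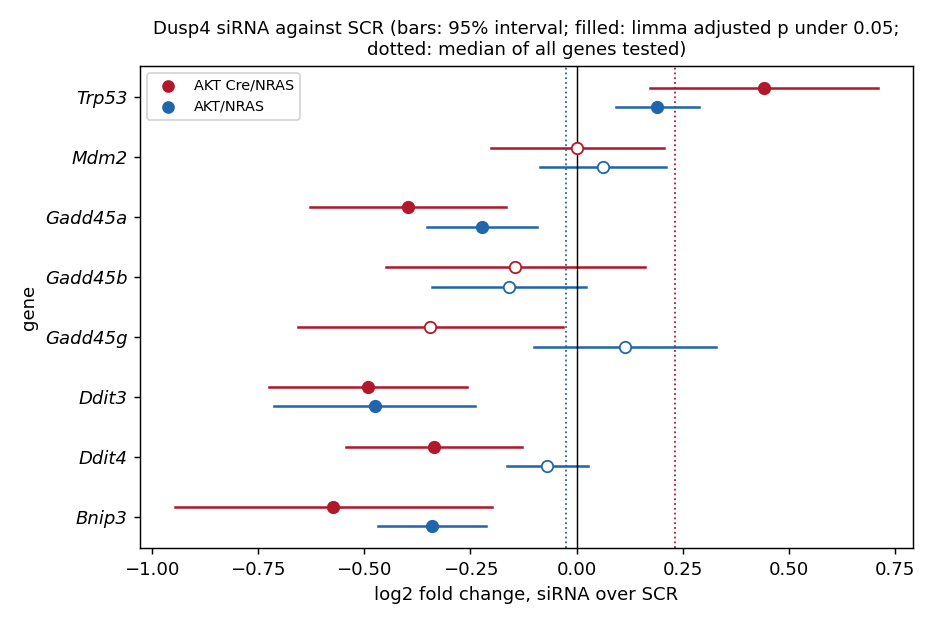
Log2 fold changes of the 8 genes, *Dusp4* siRNA over SCR, in AKT Cre/NRAS (upper marker of each pair) and AKT/NRAS (lower marker), with 95% intervals; filled markers have a limma adjusted p under 0.05 and dotted lines are the median of all genes tested (0.23 and -0.03). *Trp53* lies right of 0 and *Ddit3*, *Gadd45a* and *Bnip3* left of it in both lines, and *Gadd45g* falls on opposite sides.

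*Trp53* had 732, 770 and 767 normalized counts in AKT Cre/NRAS siRNA, against 654, 567 and 466 in AKT Cre/NRAS SCR. It had 748, 734 and 787 in AKT/NRAS siRNA, against 663, 655 and 669 in AKT/NRAS SCR. Every silenced sample of a line lay above every SCR sample of that line, and the silenced samples of both lines overlapped. The log2 fold change was 0.44 (SE 0.12, limma adjusted p = 0.0177) in AKT Cre/NRAS and 0.19 (SE 0.04, limma adjusted p = 0.0190) in AKT/NRAS. The size in AKT Cre/NRAS depended on the SCR samples, of which the one with the highest *Rpl19* to *Polr2a* ratio had the lowest *Trp53*. With both AKT Cre/NRAS SCR libraries of the highest ratio left out, the change was 0.21 (limma adjusted p = 0.0914), close to the value in AKT/NRAS. Leaving out any 1 AKT Cre/NRAS siRNA sample ended the call there (0.43 to 0.46, limma adjusted p = 0.0573 to 0.0647), and in AKT/NRAS siRNA replicate 3, SCR replicate 1 or SCR replicate 2 did (0.16 to 0.19, limma adjusted p = 0.0613 to 0.0704). Read against its panel, *Trp53* lay above 74.8% of the genes tested in AKT Cre/NRAS and above 91.3% in AKT/NRAS.

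*Mdm2*, which p53 induces, passed in neither line. It had 527, 525 and 549 normalized counts in AKT Cre/NRAS siRNA, against 528, 563 and 507 in AKT Cre/NRAS SCR, and 329, 337 and 325 in AKT/NRAS siRNA, against 341, 301 and 309 in AKT/NRAS SCR. The groups overlapped in each line, with log2 fold changes of 0.0023 (95% interval -0.20 to 0.20) and 0.06 (-0.09 to 0.21), so that a rise of *Mdm2* as large as that of *Trp53* in AKT Cre/NRAS lay outside the interval there. In AKT/NRAS the interval covers the *Trp53* change of 0.19, and with the deposited values *Mdm2* passed upward there (0.40, limma adjusted p = 0.00771). What separated *Mdm2* was the line. AKT Cre/NRAS averaged 533 ± 13.2 and AKT/NRAS 331 ± 6.09 under siRNA, and 533 ± 28.3 against 317 ± 21.1 under SCR (SD, n = 3 each), a log2 difference of 0.69 (limma adjusted p = 6.69e-06) and 0.75 (limma adjusted p = 7.95e-05).

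The lines did not separate *Trp53* in the same way. Under siRNA they averaged 756 ± 21.0 in AKT Cre/NRAS and 756 ± 27.3 in AKT/NRAS (SD, n = 3 each), with a 95% interval of -0.10 to 0.10 for the log2 difference. Under SCR the means were 562 ± 93.9 and 662 ± 7.17, and the AKT Cre/NRAS samples all lay below the AKT/NRAS samples, but the difference of -0.25 did not pass (limma adjusted p = 0.0892) and, among the fits that left out a sample, passed only without AKT Cre/NRAS SCR replicate 1 (-0.37, limma adjusted p = 0.00689). Over 8 scalings this difference ran from -0.67 to 0.26, was negative under 5 and positive under 3, and passed downward under 1. In order of their means the groups ran from AKT/NRAS siRNA and AKT Cre/NRAS siRNA, which overlapped, through AKT/NRAS SCR to AKT Cre/NRAS SCR, each without overlap with its neighbour.

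The *Gadd45* genes did not move together. *Gadd45a*, whose product halts cells at the G2/M transition and which p53 can induce, had 3697, 3064 and 3255 normalized counts in AKT Cre/NRAS siRNA, against 3999.8, 4327 and 4861 in AKT Cre/NRAS SCR. It had 3192, 3672 and 3610 in AKT/NRAS siRNA, against 4210.5, 4031 and 3958 in AKT/NRAS SCR. All silenced samples lay below all SCR samples of their line, with falls of 0.40 (SE 0.10, limma adjusted p = 0.0138) and 0.22 (SE 0.06, limma adjusted p = 0.0348) on the log2 scale. The call did not hold without AKT Cre/NRAS siRNA replicate 2 or 3 (limma adjusted p = 0.0770 and 0.0573) in that line, nor without siRNA replicate 3 or any 1 SCR sample in AKT/NRAS (limma adjusted p = 0.0552 to 0.109). Although *Gadd45a* is a p53 target, its direction was opposite to that of *Trp53* in both lines. Between the lines it did not pass, with log2 differences of -0.07 under siRNA (95% interval -0.26 to 0.13) and 0.11 under SCR (-0.10 to 0.31). The value under SCR depended on the scaling and passed upward with the deposited values (0.61, limma adjusted p = 0.0353), re-centred on the median (0.47, limma adjusted p = 0.00557), with quantile normalization (0.38, limma adjusted p = 0.00375) and with all reference genes (0.28, limma adjusted p = 0.0270).

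*Gadd45b*, an early response gene of NF-kappaB and TGF-beta signalling, was the member with the largest difference between the lines. Its AKT Cre/NRAS samples had 82.6, 68.1 and 90.6 normalized counts under siRNA and 84.8, 86.9 and 93.7 under SCR. The AKT/NRAS samples had 456, 531 and 558 under siRNA and 592, 576 and 551 under SCR. The 6 samples of one line were thus far from the 6 of the other, with log2 differences of -2.67 (SE 0.13, limma adjusted p = 1.02e-06) under siRNA and -2.68 (SE 0.09, limma adjusted p = 4.43e-08) under SCR, which is 0.157 and 0.156 of the AKT/NRAS level. Under SCR only 2.91% of the genes tested had a lower value. Silencing changed it in neither line beyond the spread, with log2 fold changes of -0.14 (95% interval -0.45 to 0.16) in AKT Cre/NRAS and -0.16 (-0.34 to 0.02) in AKT/NRAS. The AKT Cre/NRAS values rest on 69 to 105 recovered counts per sample, and the lowest of these has a 95% Poisson interval of 53.7 to 87.3, which covers counting error only.

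*Gadd45g*, the lowest counted of the 8 genes (55 to 114 recovered counts), had a response that differed between the lines with the 15 reference genes. It had 61.4, 61.2 and 57.8 normalized counts in AKT Cre/NRAS siRNA, against 66.9, 73.4 and 91.4 in AKT Cre/NRAS SCR, and 82.6, 99.9 and 97.8 in AKT/NRAS siRNA, against 84.0, 84.6 and 89.3 in AKT/NRAS SCR. All silenced samples lay below the SCR samples in AKT Cre/NRAS, while the groups overlapped in AKT/NRAS. Neither change passed on its own, with -0.34 (SE 0.14, limma adjusted p = 0.0660) in AKT Cre/NRAS and 0.11 (SE 0.09, limma adjusted p = 0.466) in AKT/NRAS, but their difference did, at -0.46 (SE 0.16, limma adjusted p = 0.0352). Under siRNA the AKT Cre/NRAS level was 0.649 of the AKT/NRAS level, a log2 difference of -0.62 (limma adjusted p = 0.000445), and under SCR the difference of -0.16 did not pass (limma adjusted p = 0.271). The change in AKT Cre/NRAS passed without SCR replicate 1 (-0.44, limma adjusted p = 0.0236), and the difference under SCR without AKT Cre/NRAS SCR replicate 3 (-0.29, limma adjusted p = 0.0341), with the best 10 (-0.44, limma adjusted p = 0.00462) or best 5 (-0.58, limma adjusted p = 0.00463) reference genes, and without both AKT Cre/NRAS SCR libraries of the highest *Rpl19* to *Polr2a* ratio (-0.36, limma adjusted p = 0.0110). The AKT Cre/NRAS SCR values ran in the order of the *Rpl19* to *Polr2a* ratio of the libraries, and with both libraries of the highest ratio left out the interaction was -0.27 (limma adjusted p = 0.176). With the best 5 reference genes it was 0.019.

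*Ddit3*, the transcription factor CHOP, which the unfolded protein response induces and which promotes cell death when the stress persists, fell by a like amount in both lines. It had 2623, 2278 and 2098 normalized counts in AKT Cre/NRAS siRNA, against 2994, 3562 and 3259.9 in AKT Cre/NRAS SCR. It had 768, 954 and 1021 in AKT/NRAS siRNA, against 1344, 1247.5 and 1199.6 in AKT/NRAS SCR. None of the groups overlapped with another, so that the order from high to low was AKT Cre/NRAS SCR, AKT Cre/NRAS siRNA, AKT/NRAS SCR, AKT/NRAS siRNA. The log2 fold change was -0.49 (SE 0.10, limma adjusted p = 0.00624) in AKT Cre/NRAS and -0.48 (SE 0.10, limma adjusted p = 0.0188) in AKT/NRAS, with an interaction of -0.02 and a 95% interval of -0.37 to 0.34. Only 2.98% and 2.02% of the genes tested had a lower value. In AKT/NRAS the call was lost without SCR replicate 1 or 2 (-0.43 and -0.48, limma adjusted p = 0.0613 and 0.0550). *Ddit3* was the 1 member that passed in AKT Cre/NRAS in every one of the 6 fits that left out a sample, and with both AKT Cre/NRAS SCR libraries of the highest *Rpl19* to *Polr2a* ratio left out it was -0.37 (limma adjusted p = 0.0431).

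The difference of *Ddit3* between the lines was larger than the effect of silencing. AKT Cre/NRAS averaged 2333 ± 267 against 914 ± 131 in AKT/NRAS under siRNA, and 3272 ± 284 against 1264 ± 73.3 under SCR (SD, n = 3 each), which is 2.56-fold and 2.58-fold higher (limma adjusted p = 3.17e-05 and 1.61e-06).

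*Ddit4*, which encodes REDD1, a brake on mTORC1 through the TSC complex, went the other way between the lines and fell with silencing in AKT Cre/NRAS. It had 1184, 1041 and 979 normalized counts in AKT Cre/NRAS siRNA, against 1392, 1299 and 1341 in AKT Cre/NRAS SCR, with no overlap. The values were 1976, 2152 and 2129.7 in AKT/NRAS siRNA and 2129, 2199 and 2231 in AKT/NRAS SCR, where the groups overlapped. The log2 fold change was -0.34 (SE 0.09, limma adjusted p = 0.0181) in AKT Cre/NRAS and -0.07 (SE 0.04, limma adjusted p = 0.308) in AKT/NRAS, and the difference of -0.27 passed (SE 0.10, limma adjusted p = 0.0413), but not with the replicate number as a block (limma adjusted p = 0.0542). The AKT Cre/NRAS level was 0.511 of the AKT/NRAS level under siRNA (log2 -0.97, limma adjusted p = 1.23e-05) and 0.615 under SCR (log2 -0.70, limma adjusted p = 1.96e-05). The fall in AKT Cre/NRAS was as large without both SCR libraries of the highest *Rpl19* to *Polr2a* ratio, at -0.39 (limma adjusted p = 0.0282), but did not pass without siRNA replicate 2 or 3 (limma adjusted p = 0.0773 and 0.0787).

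*Bnip3*, an outer mitochondrial membrane protein that hypoxia induces and that recruits mitochondria to autophagy, had 18835, 20014 and 19430 normalized counts in AKT Cre/NRAS siRNA, against 22649, 27947 and 38007 in AKT Cre/NRAS SCR. It had 12193, 12341 and 11898 in AKT/NRAS siRNA, against 16729, 15139 and 14354 in AKT/NRAS SCR. The silenced samples of each line lay below its SCR samples and close to each other, and the spread lay in AKT Cre/NRAS SCR, with a coefficient of variation of 26.4% against 3.04% in AKT Cre/NRAS siRNA. The log2 fold change was -0.57 (SE 0.17, limma adjusted p = 0.0216) in AKT Cre/NRAS and -0.34 (SE 0.05, limma adjusted p = 0.00816) in AKT/NRAS, and the difference of -0.23 did not pass (limma adjusted p = 0.376). The *Bnip3* values of the AKT Cre/NRAS SCR libraries ran in the order of their *Rpl19* to *Polr2a* ratio, and with both libraries of the highest ratio left out the change was -0.22 (limma adjusted p = 0.0506). Leaving out any 1 AKT Cre/NRAS siRNA sample or SCR replicate 2 also ended the call (limma adjusted p = 0.0559 to 0.0878). In AKT/NRAS, where that ratio spanned 3.81 to 3.92, it passed in all 6 fits that left out a sample. AKT Cre/NRAS was 1.60-fold higher than AKT/NRAS under siRNA (limma adjusted p = 1.62e-06) and 1.88-fold higher under SCR (limma adjusted p = 0.00166).

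Comparing AKT Cre/NRAS with AKT/NRAS, which asks what the loss of the AKT construct goes with in the same tumour line, 6 of the 8 members passed under siRNA and 5 under SCR. *Ddit3*, *Bnip3* and *Mdm2* were higher and *Gadd45b* and *Ddit4* lower in AKT Cre/NRAS under both conditions, and *Gadd45g* passed under siRNA, lower in AKT Cre/NRAS, and not under SCR. Most of the panel differed as well: 74.5% of 522 genes passed under siRNA, 36.6% higher and 37.9% lower, and 76.9% of 515 passed under SCR, 28.9% higher and 48.0% lower, so that the members' count is near the background. Groups did not overlap for 6 of 8 members under siRNA, where 76.6% of all genes did not, and for 6 of 8 under SCR, where 79.8% did not. These comparisons use the same samples as those of silencing. Under siRNA the count of 6 members, 3 higher and 3 lower, was the same under every alternative tried. Under SCR *Ddit4* did not pass with the deposited values (-0.20, limma adjusted p = 0.542), *Bnip3* did not with quantile normalization (0.23, limma adjusted p = 0.135), and *Mdm2* did not with the best 5 reference genes (0.33, limma adjusted p = 0.254). Markers of other cell types moved with the lines. Of 6 biliary or progenitor markers 3 were on the panel (*Sox9*, *Spp1* and *Prom1*), of which *Sox9* and *Spp1* stood above the floor in all samples. The summed level of *Sox9* and *Spp1*, without *Prom1*, ran from 101900 to 115810 in AKT Cre/NRAS siRNA and from 120320 to 161790 in AKT Cre/NRAS SCR. It ran from 17246 to 19905 in AKT/NRAS siRNA and from 15321 to 15943 in AKT/NRAS SCR. Of 6 stellate cell and fibroblast markers 4 were on the panel, of which *Pdgfrb* and *Col3a1* stood at the floor in all samples. Only 1 of the 4 stood above the floor in all samples. Its level alone was 415 to 468 in AKT Cre/NRAS siRNA and 235 to 380 in AKT Cre/NRAS SCR, against 30.8 to 56.6 and 51.0 to 63.8 in AKT/NRAS siRNA and SCR. *Kdr* of the endothelium stood at the floor in all samples. The part of these markers in the results was not tested.

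**Figure D3:**
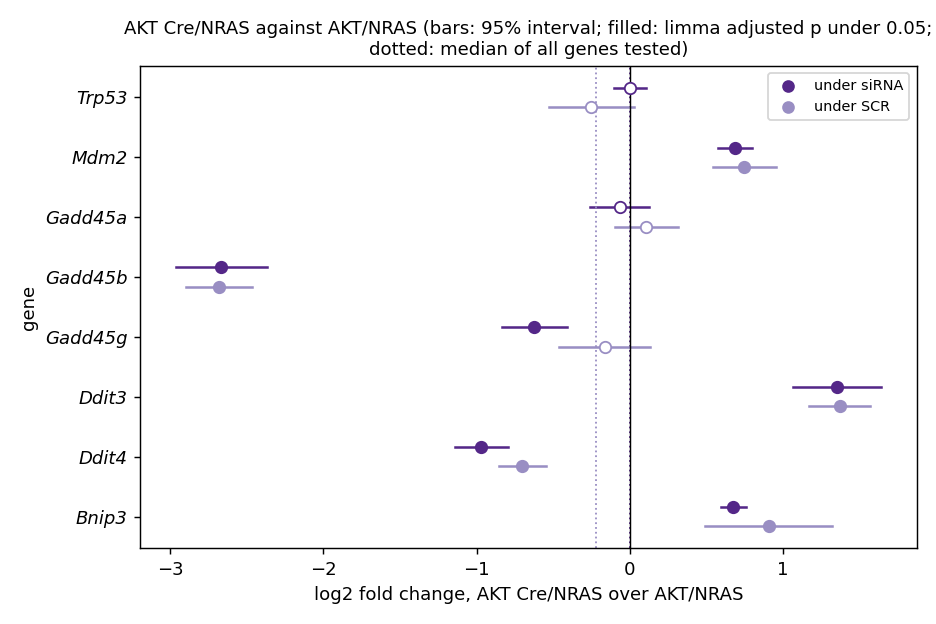
Log2 fold changes of the 8 genes, AKT Cre/NRAS over AKT/NRAS, under siRNA (upper marker of each pair) and SCR (lower marker), with 95% intervals; filled markers have a limma adjusted p under 0.05 and dotted lines are the median of all genes tested (-0.00 and -0.22). *Gadd45b* stands near -2.7 and *Ddit3* near 1.4 in both conditions, and *Trp53* and *Gadd45a* lie near 0.

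The test of whether silencing acted differently in the lines passed for 2 of 8 members, *Gadd45g* and *Ddit4*, both lower in AKT Cre/NRAS relative to AKT/NRAS. *Dusp4* itself fell by less in AKT Cre/NRAS (log2 -0.45) than in AKT/NRAS (log2 -1.73), so line and depth of silencing cannot be told apart in this test. In the panel 45.3% of 525 genes passed this test, 40.6% with a higher and 4.76% with a lower response in AKT Cre/NRAS, and the median over all genes tested was 0.25, against -0.12 over the members. *Trp53* had an interaction of 0.25 (limma adjusted p = 0.152), at the median of the panel, and passed without AKT Cre/NRAS SCR replicate 1 (0.37, limma adjusted p = 0.00983), as did *Bnip3* (-0.41, limma adjusted p = 0.0377). Of the 12 fits that left out a sample, the *Gadd45g* call held in 4, without AKT/NRAS siRNA replicate 1, AKT/NRAS SCR replicate 3 or AKT Cre/NRAS SCR replicate 1 or 2 (limma adjusted p = 0.0518 to 0.0769 in the others). The *Ddit4* call held in 3, without AKT/NRAS siRNA replicate 1, AKT Cre/NRAS siRNA replicate 1 or AKT Cre/NRAS SCR replicate 2 (limma adjusted p = 0.0508 to 0.0890 in the others).

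How the samples were scaled changed several of these calls and moved the median of all genes. That median in AKT Cre/NRAS siRNA against SCR was 0.23 with the 15 reference genes and between -0.10 and 0.67 under the other scalings, and in AKT/NRAS it was -0.03 and between -0.06 and 0.30. *Trp53* was positive in both lines under 8 of 8 scalings, from 0.09 to 0.89 in AKT Cre/NRAS, where it passed under 4, and from 0.15 to 0.53 in AKT/NRAS, where it passed under 8. *Ddit3* was negative under 8 of 8 in both lines, from -0.85 to -0.04 and from -0.51 to -0.14, and passed under 5 and 7. *Bnip3* was likewise negative under 8 of 8 in both lines, from -0.93 to -0.09 and from -0.81 to -0.01, and passed under 4 and 7. *Gadd45a* was negative under 7 of 8 in each line, with the exception of the 5 best reference genes in AKT Cre/NRAS (0.06) and of the deposited values in AKT/NRAS (0.11). With the deposited values, limma called 0 members in AKT Cre/NRAS (2 at an unadjusted p under 0.05), where it called 1 gene of the panel, and in AKT/NRAS 4 members passed, all upward (*Trp53*, *Mdm2*, *Gadd45g* and *Ddit4*), where 290 genes did (287 higher, 3 lower; with the reference genes 27 higher and 59 lower). With each sample re-centred on the median, 7 members passed in AKT Cre/NRAS, all downward, and the panel split into 32 higher and 136 lower, against 204 higher and 27 lower with the reference genes.

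**Figure D4:**
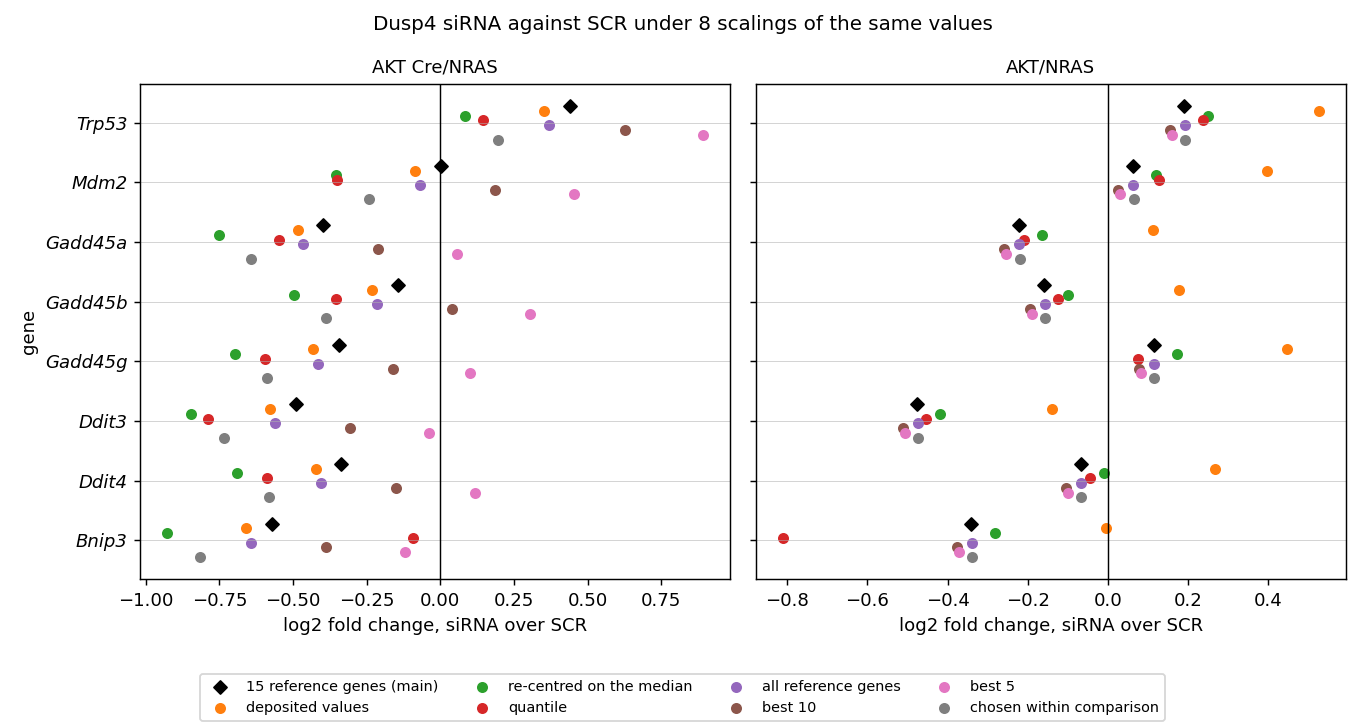
Log2 fold changes of the 8 genes, *Dusp4* siRNA over SCR, in AKT Cre/NRAS (left) and AKT/NRAS (right), each under 8 scalings of the same values; the black diamond is the scaling with 15 reference genes. *Trp53* stays right of 0 and *Ddit3* and *Bnip3* stay left of it in both lines under each scaling shown, while *Mdm2* in AKT Cre/NRAS lies on either side (-0.35 to 0.45).

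Ratios between members of the same sample do not change with a factor per sample, and are given as a description since the pairs were chosen after the values were seen. The log2 ratio of *Trp53* to *Ddit3* was -1.84, -1.57 and -1.45 in AKT Cre/NRAS siRNA, against -2.20, -2.65 and -2.81 in AKT Cre/NRAS SCR, and -0.04, -0.38 and -0.38 in AKT/NRAS siRNA, against -1.02, -0.93 and -0.84 in AKT/NRAS SCR. The silenced samples lay above the SCR samples in each line, by 0.93 and 0.67 on average. The log2 ratio of *Ddit3* to *Mdm2* averaged 2.12 ± 0.19 in AKT Cre/NRAS siRNA against 2.62 ± 0.10 in AKT Cre/NRAS SCR, and 1.46 ± 0.22 in AKT/NRAS siRNA against 2.00 ± 0.05 in AKT/NRAS SCR (SD, n = 3 each), again without overlap within a line. For *Trp53* to *Mdm2* the difference was 0.44 in AKT Cre/NRAS and 0.13 in AKT/NRAS, where the lowest silenced sample (1.1225) stood next to the highest SCR sample (1.1197).

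Genes around this axis were read from fixed lists. Of 12 regulators of p53 and kinases that activate it, 9 were on the panel. In AKT Cre/NRAS siRNA against SCR 8 were tested, of which 5 rose and none fell, where 40.6% of all genes tested rose. The 5 included the acetyltransferases *Crebbp* (0.71) and *Ep300* (0.70), *Pml* (0.59), which gathers p53 in nuclear bodies, and the DNA damage kinase *Atm* (0.67). These 4 were positive under 8 of 8 scalings and passed under 4 to 7, and the list median of 0.50 stood beside 0.23 for all genes tested. In AKT/NRAS 1 of 9 passed, *Ep300*, which fell by 0.14 and was positive with the deposited values (0.20), and the list median was -0.04. There 17.3% of all genes tested passed. The interaction passed for 4 of 9, *Ep300* (0.83), *Crebbp* (0.77), *Pml* (0.69) and *Atm* (0.58), all upward as were 40.6% of all genes tested, and the list median of 0.39 stood beside 0.25 for all genes tested. Between the lines, 1 gene of the list was higher and 3 lower in AKT Cre/NRAS under siRNA, and 1 higher and 7 lower under SCR, where 28.9% of all genes tested were higher and 48.0% lower. Between the lines, *Prkdc*, the DNA-dependent protein kinase, was lower in AKT Cre/NRAS under siRNA (log2 -1.10) and SCR (log2 -1.49).

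Of 14 p53 targets of arrest and repair, 5 were on the panel and 4 were tested. *Cdkn1a*, which encodes the cell cycle inhibitor p21 and is the p53 target most used as its readout, went in opposite directions in the lines. It averaged 4795 ± 401 in AKT Cre/NRAS siRNA against 3650.4 ± 797 in AKT Cre/NRAS SCR, and 4571 ± 155 in AKT/NRAS siRNA against 5850 ± 174 in AKT/NRAS SCR (SD, n = 3 each). The log2 fold change was 0.41 (limma adjusted p = 0.0425) in AKT Cre/NRAS and -0.36 (limma adjusted p = 0.00161) in AKT/NRAS, with an interaction of 0.77 (limma adjusted p = 0.00809). Over the scalings *Cdkn1a* was positive in AKT Cre/NRAS under 8 of 8 and passed under 3, and it was negative in AKT/NRAS under 8 of 8 and passed under 7. In AKT/NRAS *Trp53* thus rose while *Cdkn1a* fell. *Xpc*, a damage sensor of nucleotide excision repair, rose in AKT Cre/NRAS (0.77) without overlap between the groups, and *Pcna*, the replication clamp, fell (-0.36), although its groups overlapped and it was positive with the best 5 reference genes (0.094). The list median was 0.04 in AKT Cre/NRAS, beside 0.23 for all genes tested, and 0.11 in AKT/NRAS, beside -0.03.

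Of 10 p53 targets of apoptosis, 4 were on the panel and tested. In AKT Cre/NRAS siRNA against SCR the death receptor *Tnfrsf10b* rose (0.35, against -0.0021 re-centred on the median) and 3 did not pass, and in AKT/NRAS none of 4 passed (limma; at an unadjusted p under 0.05 there was 1, *Bid*). Of all genes tested, 40.6% rose and 5.37% fell with silencing in AKT Cre/NRAS, and 5.44% rose and 11.9% fell in AKT/NRAS. Between the lines 3 of 4 were higher in AKT Cre/NRAS under both conditions: the death receptors *Fas* (0.94 under siRNA, 1.53 under SCR) and *Tnfrsf10b* (0.88 and 0.54) and the mitochondrial pore former *Bax* (0.54 and 0.74), while *Bid*, which links death receptors to mitochondria, was lower (-0.51 and -0.29). Under siRNA these 4 differences passed under 8 of 8 scalings, and under SCR *Bid* was positive under 2 of 8. Beside these counts and those of the secreted products below, 36.6% of all genes tested were higher and 37.9% lower in AKT Cre/NRAS under siRNA. Under SCR 28.9% were higher and 48.0% lower. Of 3 secreted products of p53 targets, 2 were on the panel, and both were higher in AKT Cre/NRAS: *Igfbp3*, which binds insulin-like growth factors, averaged 1090.3 ± 35.3 against 50.8 ± 5.47 in AKT/NRAS under siRNA and 974.6 ± 156 against 46.7 ± 5.81 under SCR, and *Thbs1* averaged 43.6 ± 10.95 under siRNA and 40.3 ± 6.21 under SCR (SD, n = 3 each), against the floor of 27.1 in all 6 AKT/NRAS samples.

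Of the kinases of the JNK and p38 cascades, on which GADD45 proteins and DUSP4 both act, 8 of 13 were on the panel and 6 were tested. In AKT Cre/NRAS siRNA against SCR 4 rose, *Map3k1* (0.55), *Map3k5* (0.48), *Mapk9* (0.47) and *Map2k4* (0.36), and 1 fell, *Mapk8*, which encodes JNK1 and is named after its values were seen (409 ± 15.4 in AKT Cre/NRAS siRNA against 523 ± 59.9 in AKT Cre/NRAS SCR, SD, n = 3 each). In the panel 40.6% of the genes rose and 5.37% fell. The 4 that rose were positive under 8 of 8 scalings and passed under 4 or 5, and the list median of 0.41 stood beside 0.23 for all genes tested. In AKT/NRAS *Map3k1* fell (-0.37) and 5 did not pass, where 11.9% of all genes tested fell. The same 4 genes had a higher response in AKT Cre/NRAS than in AKT/NRAS by the interaction test (0.41 to 0.92), although *Map2k4* was negative there under 2 of 7 scalings. *Mapk8* had a lower response there, negative under 6 of 7 scalings and past the threshold under 4. By the interaction test 40.6% of 525 genes in the panel had a higher response in AKT Cre/NRAS and 4.76% a lower one. The list median for that test was 0.44, beside 0.25 for all genes tested.

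Of the mTORC1 pathway, on which REDD1 acts through the TSC complex, 4 of 9 genes were on the panel. *Tsc2* (0.82), *Tsc1* (0.40) and *Mtor* (0.60) rose in AKT Cre/NRAS siRNA against SCR, the same comparison in which *Ddit4* fell, and *Eif4ebp1*, the translational repressor that mTORC1 inactivates, did not pass (-0.10). The 3 were positive under 8 of 8 scalings and passed under 3 to 7, where 40.6% of the panel rose, and the list median was 0.50, beside 0.23 for all genes tested. In AKT/NRAS *Eif4ebp1* fell (-0.24, against 0.099 with the deposited values) and 3 did not pass, where 11.9% of all genes tested fell. Between the lines *Mtor* was much lower in AKT Cre/NRAS, with 164 ± 24.2 against 763 ± 45.9 under siRNA and 107 ± 4.77 against 827 ± 52.2 under SCR (SD, n = 3 each). *Tsc2* (-0.28 under siRNA, -1.19 under SCR) and *Tsc1* (-0.33 and -0.64) were lower as well, and *Eif4ebp1* was higher (0.80 and 0.67). Under siRNA *Tsc1* passed under 4 of 8 scalings. Of all genes tested, 36.6% were higher and 37.9% lower under siRNA, and 28.9% higher and 48.0% lower under SCR. Of 10 hypoxia genes only *Vegfa* was on the panel besides *Bnip3* and *Ddit4*. It fell in AKT/NRAS (-0.22, against 0.12 with the deposited values), did not pass in AKT Cre/NRAS (0.08), and was higher in AKT Cre/NRAS than in AKT/NRAS under siRNA (0.65) and SCR (0.35, against -0.069 with the best 5 reference genes).

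The members differed in which genes they resembled over the 12 samples, among the 446 genes above the floor in all of them. Pearson's r of log2 normalized counts is a description here, since the samples fall into 4 groups that share libraries and line. *Ddit3* was most like *Eif4ebp1* (0.98) and *Endog* (0.97), *Bnip3* like *Cdkn1b* (0.96) and *Fancl* (0.94), and *Gadd45b* like *Tmprss2* and *Bmp2* (both 0.99). *Mdm2* was most like *Eef1g* (0.99), *Trp53* like *Ccnd3* and *Tgfbr2* (both 0.92), and *Gadd45a* like *Them4* (0.81) and *Ubb* (0.80). *Ddit4* was most like *Stmn1* and *Gadd45b* (both 0.96), and *Gadd45g* like *H3f3a* (0.95) and *Skp1a* (0.90).

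With the group means removed, *Ddit3* still had *Eif4ebp1* as its closest gene (0.87), followed by *Rnf43* (0.72). *Bnip3* was then closest to *Npm1* and *Rpl19* (both 0.97), *Gadd45g* to *Polr2h* (0.92) and *Bad* (0.87), and *Trp53* to *Stat3* and *Hdac5* (both 0.96). For *Mdm2* these were *Hdac10* and *Ppp3cc* (both 0.85), for *Gadd45a* *Ercc4* (0.84) and *Ezh2* (0.80), for *Gadd45b* *Ifnar1* (0.76) and *Cdkn2c* (0.73), and for *Ddit4* *Sox9* (0.76) and *Notch2* (0.75). These deviations are largest in AKT Cre/NRAS SCR, where the median coefficient of variation was 12.01% over the 446 genes, against 5.52% in AKT Cre/NRAS siRNA, and 4.91% and 4.89% in AKT/NRAS siRNA and SCR.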

How the data were processed

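RNA of 3 biological replicates of each of 4 groups was hybridised to the NanoString® Mouse PanCancer Pathways panel and read in nSolver by the authors. The deposited signal is the barcode count times a factor from the positive controls, with values up to 20 set to 20, as the values themselves show: divided by each sample's factor (0.827 to 1.27), 100% of the values up to 300 gave whole counts within 0.05. Between 252 and 293 of 770 genes per sample stood at that floor, so no count model was used.

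Reference genes were chosen by pairwise variation as geNorm does, among the last 20 genes of the table over all 12 samples. The best 15 were kept (*Abcf1*, *Alas1*, *Edc3*, *Eif2b4*, *G6pdx*, *Hdac3*, *Hprt*, *Nubp1*, *Oaz1*, *Polr1b*, *Ppia*, *Rpl19*, *Sap130*, *Sdha* and *Tbp*), so that *Rpl19*, used above as a mark of the libraries, is also 1 of them. Each sample was scaled by the geometric mean of its reference genes, lower values were set to 27.1, the highest floor this gave, and a gene that no sample of a comparison held above it was dropped. log2(value + 1) was tested with limma 3.58.1 in R 4.3.3 (lmFit, then eBayes with an intensity trend), only the groups compared entering a fit and all 12 samples the interaction, at 0.05 after Benjamini-Hochberg adjustment. Fold changes of low genes are understated on this scale. The fits were tested on simulated data. Exact Poisson intervals at 95% cover counting error only, and with 3 against 3 samples an exact permutation test cannot go below p = 0.1, so none was used. The p values set a difference between group means against the spread between these samples, moderated over the genes of the fit. They say nothing of other lines.

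Same-numbered AKT Cre/NRAS siRNA and SCR samples deviated together from their group means (r = 0.22, 0.12 and 0.23), so the numbers were taken to pair them in that comparison. The main fits were unpaired all the same, since the methods name no pairing, and their p values leave this pairing out. It enters only the alternative with a replicate block. Alternatives were 7 other scalings, another pseudocount, other filters, the Benjamini-Yekutieli adjustment, 1 fit over all groups, a replicate block and each sample left out. The Benjamini-Yekutieli adjustment is the one that the study's methods name. Leaving out both AKT Cre/NRAS SCR libraries of highest *Rpl19* to *Polr2a* ratio was chosen after seeing the data. Members and lists were chosen with earlier results of these data known. Named genes are the members, up to 4 genes of each list with the smallest p in a comparison, and for each member the 2 genes with the highest Pearson's r over 12 samples, for levels and for deviations from group means. Some of the genes that this rule or the marker lists select are not reported here. Promoters are RefSeq sequences of GRCm38.p6, matched by symbol for all 8 members.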

Additional observations from a re-analysis of the deposited data

Results flagged for a closer look

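*Gadd45g* responded differently to *Dusp4* silencing in the lines by a test of the difference itself (interaction -0.46, SE 0.16, limma adjusted p = 0.0352): the 3 AKT Cre/NRAS siRNA samples lay below their SCR samples, and the AKT/NRAS groups overlapped. *Ddit4* met the same test (interaction -0.27, SE 0.10, limma adjusted p = 0.0413), with a fall in AKT Cre/NRAS of 0.34 on the log2 scale and a change of -0.07 in AKT/NRAS. Neither passed with both AKT Cre/NRAS SCR libraries of the highest *Rpl19* to *Polr2a* ratio left out, at -0.27 (limma adjusted p = 0.176) for *Gadd45g* and -0.32 (limma adjusted p = 0.0608) for *Ddit4*. With the replicate number as a block *Ddit4* did not pass (limma adjusted p = 0.0542), and with 1 sample left out the *Gadd45g* call held in 4 and the *Ddit4* call in 3 of 12 fits. With the best 5 reference genes both were positive (0.019 and 0.22), and 45.3% of the panel passed this test. The silencing of *Dusp4* was deeper in AKT/NRAS (log2 -1.73) than in AKT Cre/NRAS (log2 -0.45), so line and depth of silencing cannot be told apart here.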

How the results depend on the processing

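Of 8 members, 5 passed in AKT Cre/NRAS siRNA against SCR. The number was 0 with the deposited values and 0 without a filter on low values (limma; 2 and 6 at an unadjusted p under 0.05), 2 with the best 10 reference genes, 1 with the best 5, 3 with reference genes chosen within the comparison, 1 with Benjamini-Yekutieli adjustment, 2 without both AKT Cre/NRAS SCR libraries of the highest *Rpl19* to *Polr2a* ratio, and 1 to 6 with 1 sample left out. In AKT/NRAS 4 passed, and 2 without a filter, 0 with Benjamini-Yekutieli adjustment, 1 in 1 fit over all groups, and 1 to 4 with 1 sample left out. Between the lines 5 passed under SCR (3 higher, 2 lower), 7 with the best 10 reference genes (3 higher, 4 lower), 5 with the deposited values (4 higher, 1 lower), 6 re-centred on the median, with all reference genes, in 1 fit over all groups or without both SCR libraries, and 5 to 6 with 1 sample left out, and 6 passed under siRNA throughout. For the interaction 2 passed, and 1 with the deposited values, 5 re-centred on the median, 5 with quantile normalization, 0 with the best 10 and 1 with the best 5 reference genes, 0 without a filter, 1 without the intensity trend, 0 with Benjamini-Yekutieli adjustment, 0 without both SCR libraries, and 0 to 3 with 1 sample left out; where limma called 0, there were 1 or 2 at an unadjusted p under 0.05, and 4 for the 0 in AKT/NRAS. Of the single gene values under an alternative, 674 kept direction and side of the threshold, 92 no longer passed, 26 newly passed and 64 changed sign. The cause was not tested.

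With the replicate number as a block, 5 members passed in AKT Cre/NRAS (263 genes of the panel), 3 in AKT/NRAS, where *Gadd45a* no longer passed (limma adjusted p = 0.0577), 5 and 6 between the lines under SCR and siRNA, and 1 for the interaction, where *Ddit4* no longer passed; no other member's call changed. In the other comparisons the numbers were not taken to pair the samples. Same-numbered samples correlated by -0.08, -0.02 and -0.07 in AKT/NRAS, by 0.21, 0.03 and 0.16 between the lines under siRNA, and by -0.02, 0.01 and -0.05 under SCR. Samples of different number correlated by -0.29 to 0.08 in AKT Cre/NRAS, and by -0.20 to 0.06 between the lines under siRNA. The pattern under siRNA thus came near that in AKT Cre/NRAS, and whether the numbers pair samples there was not tested.

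Over the panel, 231 genes passed in AKT Cre/NRAS, against 1 with the deposited values, 93 with quantile normalization (53 higher, 40 lower), 103 with reference genes chosen within the comparison, 56 without a filter, 70 with Benjamini-Yekutieli adjustment, 110 without both SCR libraries, and 99 to 297 with 1 sample left out. With the best 5 reference genes 254 were higher and 1 lower. In AKT/NRAS 86 passed, against 290 with the deposited values, 45 without a filter, 10 with Benjamini-Yekutieli adjustment, 23 in 1 fit over all groups, and 39 to 92 with 1 sample left out. Between the lines under SCR 149 were higher and 247 lower, against 202 and 99 with the deposited values. For the interaction 238 passed, 213 higher and 25 lower, against 32 with the deposited values (2 higher, 30 lower), 201 re-centred on the median (50 higher, 151 lower), 306 with the best 5 reference genes (305 higher, 1 lower) and 101 with Benjamini-Yekutieli adjustment.

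Of the values that had passed, *Gadd45a* and *Ddit4* in AKT Cre/NRAS and *Gadd45g* and *Ddit4* for the interaction changed sign with the best 5 reference genes, and *Gadd45a* in AKT/NRAS with the deposited values; a p is given where the changed value itself passed. In AKT Cre/NRAS siRNA against SCR, *Mdm2* was -0.085 with the deposited values, -0.35 re-centred on the median (limma adjusted p = 0.0194), -0.35 with quantile normalization (limma adjusted p = 0.0390), -0.068 with all reference genes and -0.24 with those chosen within the comparison. *Gadd45b* was 0.039 with the best 10 reference genes, and with the best 5 *Gadd45a* was 0.056, *Gadd45b* 0.30, *Gadd45g* 0.10 and *Ddit4* 0.12. In AKT/NRAS the deposited values gave 0.11 for *Gadd45a*, 0.18 for *Gadd45b* and 0.27 for *Ddit4* (limma adjusted p = 0.0407). Between the lines under SCR, *Trp53* was 0.26 with the deposited values, 0.11 re-centred and 0.077 with quantile normalization, *Gadd45g* was 0.34, 0.19 re-centred and 0.0054 with all reference genes, and *Gadd45a* was -0.17 with the best 10 and -0.31 with the best 5 reference genes and -0.023 without both SCR libraries. Under siRNA, *Trp53* was 0.084 with the deposited values, 0.10 with all, 0.063 with the best 5 and 0.068 with the reference genes of the comparison, and *Gadd45a* was 0.017 with the deposited values, 0.048 with quantile normalization, 0.035 with all and 0.0021 with the reference genes of the comparison. For the interaction, *Trp53* and *Gadd45b* were -0.17 and -0.41 with the deposited values, -0.16 and -0.39 re-centred, and -0.092 and -0.23 with quantile normalization, where *Bnip3* was 0.72 (limma adjusted p = 0.00900), and *Gadd45b* was -0.056 with all reference genes. With the best 10 the interaction was 0.16 for *Mdm2*, 0.047 for *Gadd45a* and 0.21 for *Ddit3*. With the best 5 it was 0.42 for *Mdm2*, 0.31 for *Gadd45a*, 0.019 for *Gadd45g*, 0.47 for *Ddit3*, 0.22 for *Ddit4* and 0.25 for *Bnip3* (limma adjusted p = 0.0363), and without both SCR libraries 0.11 for *Ddit3* and 0.12 for *Bnip3*. With 1 sample left out, *Mdm2* in AKT Cre/NRAS lay between -0.033 and 0.043, *Trp53* between the lines under siRNA between -0.021 and 0.029, and the interaction between -0.075 and 0.13 for *Gadd45b* and between -0.14 and 0.070 for *Ddit3*. The depth limits *Gadd45g* most, whose lowest count of 55 has a 95% Poisson interval of 41.4 to 71.6.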
